A study of Mus musculus with 4 samples.

Results

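Mature cerebellar granule neurons were selected on measured expression from single-nucleus RNA libraries of mouse brain at postnatal day 14. A nucleus was a member when at least 3 of the 7 genes Gabra6, Cbln3, Fat2, Il16, Grm4, Gm2694 and Gm31615 had a UMI (unique molecular identifier, 1 counted RNA molecule). It also had no UMI of Gad1 or Gad2, the enzymes that make GABA, and a UMI of at most 1 of the 7 genes Gm29398, Gm12295, Gm12022, Gm31409, Nkd1, Ntf3 and Igfbpl1, which mark younger granule-lineage cells. Of 17802 barcodes, 16076 passed the filters of at least 500 UMIs and under 5% mitochondrial UMIs, and 2703 of these (16.8%) were members. The values that chose the members are given below as a description only.

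The study asked what loss of Ago2, an Argonaute protein that binds miRNAs, does in the central nervous system when it is deleted in excitatory neurons that express VGLUT2. Nuclei came from snap-frozen hemispheres of C57BL/6 mice with no treatment, while the series' design text speaks of cortical cells. All 4 libraries carried Slc17a6-Cre. The 2 libraries called WT had unaltered Ago2 (Ago2 wt/wt), and the 2 libraries labelled cKO had both Ago2 alleles floxed (Ago2 flox/flox). Slc17a6 encodes VGLUT2, so recombination is limited to cells that use this promoter at some time. The labels do not tie a genotype's libraries to different animals, and a p here therefore reflects library-to-library spread, which may be technical. WT replicates 1 and 2 held 438 and 1256 members, and cKO replicates 1 and 2 held 490 and 519. Their summed depth was 1152687 and 4126650 UMIs in WT and 1313399 and 1390555 UMIs in cKO, with medians of 2095.5, 2673, 2016 and 2029 UMIs per nucleus. No barcode sequence occurred among the members of more than 1 library, and 12 members had a barcode sequence that occurred in another library.

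Granule neurons are the small excitatory neurons of the cerebellar cortex. Their precursors divide at the surface of the cerebellum under Sonic hedgehog, leave the cell cycle, migrate inward along Bergmann glia and mature in the granular layer. There they receive mossy fibre input and tonic and phasic inhibition from Golgi cells, and their parallel fibres excite Purkinje cells. At postnatal day 14 in mice much of this migration and maturation is still going on. Mature granule neurons mainly use VGLUT1 (Slc17a7) to load glutamate into vesicles, and VGLUT2 is known from their younger stages.

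The rule genes describe the members and do not test the label. Zic1, Etv1, Pax6, Grin2c and Unc13c, which are known from granule neurons and which the rule did not use, were above the level in cortical excitatory nuclei in all 4 libraries (values below). Their lists went both ways. Of 24 transcription factors 18 were above it in all 4 libraries and 2 below. The counts were 1 and 4 of 7 NMDA subunits and 12 and 9 of 30 release genes. Among the rule genes, Gabra6, the GABA-A receptor α6 subunit that is typical of this cell, stood at 370.4 and 390.4 CPM (counts scaled to a common total over the members of each library) in WT and 417 and 415 CPM in cKO. In cortical excitatory nuclei of the same libraries it stood at 19.4, 13.3, 23.2 and 15 CPM. These 1828 nuclei had at least 3 of 7 cortical excitatory markers, no UMI of Gad1 or Gad2, and were in neither granule-lineage class. Fat2, a large cadherin of parallel fibres, stood at 502, 398, 474 and 416 CPM with both WT libraries first and then both cKO libraries, the order used for every set of 4 values here. Grm4, the presynaptic glutamate receptor mGluR4, stood at 726, 497, 817 and 599 CPM. Cbln3, a cerebellin that pairs with Cbln1, stood at 46.8, 85.8, 64.7 and 62.6 CPM, with 54 UMIs behind the lowest value. In GRCm38 Gabra6 (ENSMUSG00000020428) lies on chromosome 11 from 42306437 to 42321072, Fat2 on chromosome 11 from 55250609 to 55336564, Grm4 on chromosome 17 from 27422387 to 27521403 and Cbln3 on chromosome 14 from 55878913 to 55884392, per GENCODE M21. The genotypes overlapped for 3 of these 4 genes. Gabra6 was the exception, where both cKO levels exceeded both WT levels (log2 change 0.13, SE 0.12), as they did for 17.3% of all tested genes. Over all 7 rule genes the changes lay between -0.13 and 0.23 on the log2 scale. Because the rule required UMIs of these genes, their changes among members were partly set by the selection and do not test the genotypes. This also holds for rule genes counted in the receptor lists below. Cortical levels of the other 3 rule genes were low: Il16 had a mean of 12.1 CPM there, Gm2694 23.6 CPM and Gm31615 9.27 CPM.

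UMIs of granule neuron genes also occurred in nuclei of other cell types. The part of RNA from outside the nucleus (free RNA) and of doublets in this was not tested. A Gabra6 UMI occurred in 64.7% of members (95% exact binomial interval 62.9% to 66.5%, median depth 2382 UMIs). The share was 8.92% in oligodendrocyte nuclei (median depth 3467 UMIs) and 9.59% in microglia (1503.5 UMIs), which should lack the gene. After thinning to 1000 UMIs per nucleus the shares were 35.4%, 3.52% and 4.23%. Unc13c, which the rule did not use, showed the same order, with 88.0% of members and 25.5% and 27.6% of oligodendrocyte and microglia nuclei holding a UMI. Intervals cover counting error only. At the edge of the rule, the 932 kept nuclei with exactly 3 of the 7 mature genes that met the other conditions had 949.6 CPM of Unc13c and 476 CPM of Etv1. The 1096 nuclei with exactly 2 had 555 CPM of Unc13c and 241 CPM of Etv1.

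Markers of other cells were present in the members. The 7 cortical excitatory markers summed to 609.9, 655, 693 and 630.0 CPM, against 2432 to 2742 CPM in cortical nuclei. The 8 astrocyte and Bergmann glia markers summed to 495, 471, 306 and 681 CPM, and the 7 oligodendrocyte markers to 167, 141, 76.1 and 132 CPM. The oligodendrocyte sum was lowest in cKO replicate 1 and the astrocyte sum highest in cKO replicate 2. Microglia markers summed to 77.7 to 126 CPM, endothelial markers to 77.7 to 187 CPM, Purkinje markers to 131 to 177 CPM, inhibitory interneuron markers to 296 to 442 CPM (Gad1 and Gad2 at 0 by the rule) and oligodendrocyte precursor markers to 299 to 375 CPM. The 5 unipolar brush cell markers summed to 649.8, 618, 546 and 536 CPM, against 248 to 325 CPM in cortical nuclei. Of these, 2 were above the cortical level in all 4 libraries and 1 was below it in all 4. Plcb4, a phospholipase C, made up most of the sum at 632, 594, 498 and 513 CPM. Sln was at 0 in all libraries and Eomes reached 16.8 CPM in cKO replicate 1. Atoh1, the master factor of granule progenitors, was at 0 in all 2703 members, and the 6 progenitor markers together came to 10.1 to 16.5 CPM. In all, 296 members (11.0%) also passed the gate of another cell type, most often the cortical gate (171 nuclei) or the astrocyte gate (92 nuclei), and 160 were among the barcodes with the highest doublet scores.

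The share of members among kept nuclei did not separate the genotypes. It was 13.1% (95% exact interval 12.0% to 14.3%) and 20.4% (19.4% to 21.4%) in WT and 14.8% (13.6% to 16.0%) and 15.9% (14.7% to 17.2%) in cKO. The WT libraries held both the lowest and the highest share, so the groups overlapped. The means were 16.7% ± 5.16 in WT and 15.4% ± 0.806 in cKO (SD, n = 2 each), and the two-sided exact permutation p was 1. With 2 libraries against 2 the smallest p this test allows is 0.333. WT replicate 2 was also the deepest library. When every nucleus was thinned to 1000 UMIs before the rule was applied, the shares were 7.51%, 8.76%, 8.97% and 8.73%, and the exact permutation p was 0.667. Shallower nuclei were left out, which left 2984, 5879, 3077 and 2977 nuclei.

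**Figure D1:**
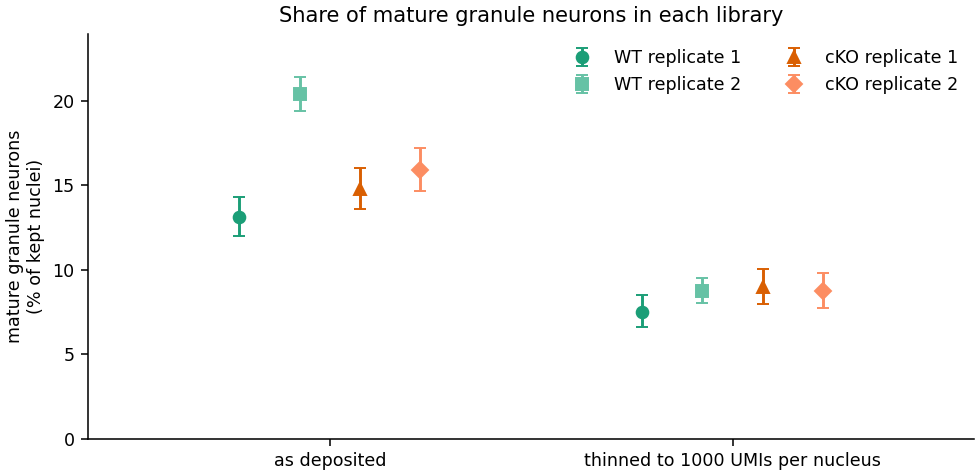
Share of mature granule neurons among kept nuclei (vertical axis, percent) in each library, from the counts as deposited (left) and with every nucleus thinned to 1000 UMIs before the rule (right). Points are libraries and bars are exact 95% binomial intervals; the deposited shares span 13.1% to 20.4%, both ends held by WT libraries, and the thinned shares 7.51% to 8.97%.

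Younger granule-lineage nuclei, with at least 3 of the 7 immature genes and at most 1 mature gene, were few: 13 and 34 in WT and 11 and 4 in cKO. The ratio of mature to immature nuclei was 33.7 and 36.9 in WT and 44.5 and 129.75 in cKO. Both cKO ratios were above both WT ratios, with an exact permutation p of 0.333, the smallest possible, and the highest ratio rested on 4 immature nuclei. After thinning to 1000 UMIs per nucleus the ratios were 112, 64.4, 34.5 and 86.7 and rested on 2, 8, 8 and 3 immature nuclei, the groups overlapped and the exact p was 0.667. A direction was thus not detectable at this depth.

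Levels in members were set against those in cortical excitatory nuclei. This comparison describes levels only, because both classes were selected on expression. The log2 ratio was taken per library with 1 CPM added to both levels. Of 3429 tested genes at 50 CPM or more in members, 67 were at least 4-fold higher than in cortical nuclei in each of the 4 libraries. Of 3353 such genes in cortical nuclei, 3 were at least 4-fold lower in members in each library.

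Transcription factors of the lineage came first. Zic1, a zinc finger factor of cerebellar progenitors and granule neurons, stood at 174, 179.6, 178 and 173 CPM in members and 19.8, 12.9, 18.6 and 20 CPM in cortical nuclei. The 4 member libraries differed little, and each was above its cortical counterpart by 3.05 to 3.70 on the log2 scale. Etv1, an ETS factor linked to activity-dependent granule maturation, stood at 554, 605, 550.5 and 634 CPM, with a log2 ratio of 2.93 to 3.38. Pax6, a homeobox factor of the rhombic lip lineage, stood at 163, 133, 155 and 150.3 CPM, with a ratio of 2.98 to 4.33. Meis1 had ratios of 2.05 to 2.44 and Nfib ratios of 1.37 to 1.87. Of the 24 listed factors, 18 were above the cortical level in all 4 libraries, and Meis2 and Bcl11a were below it in all 4. Neurod1 was near the detection limit at 2.6, 4.85, 5.33 and 5.75 CPM. Chd7, a chromatin remodeller that is needed for cerebellar growth, stood at 736, 626, 815 and 625 CPM against 73.3, 63.9, 94 and 65.4 CPM in cortical nuclei.

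Receptor genes lay on both sides of the cortical level. Of 19 AMPA and kainate receptor and auxiliary genes, 4 were above it in all 4 libraries and 13 below it in all 4. The counts were 1 and 4 of 7 NMDA subunits and 2 and 6 of 10 metabotropic receptor and scaffold genes. Receptor lists can hold rule genes, such as Grm4 among the metabotropic genes, whose place above the cortical level was favoured by the selection. Gabrd, the δ subunit that joins α6 in extrasynaptic GABA-A receptors, stood at 110.2, 104, 108 and 88.5 CPM, with a log2 ratio to cortical nuclei of 2.09 to 2.82. Of the 15 genes of GABA-A receptors and their scaffold, 6 were above the cortical level in all libraries, and 8 were below it in all. Grin2c, the NMDA receptor subunit of mature granule neurons, stood at 142, 133, 132 and 136 CPM against 9.92, 9.49, 16.8 and 4.99 CPM in cortical nuclei. It had no UMI in the 62 immature granule-lineage nuclei. Grin2b, the subunit of younger neurons, stood at 523, 539.9, 598 and 554 CPM in members, 1573 CPM in the pooled immature nuclei (305 UMIs) and 1558 CPM on average in cortical nuclei. A Grin2c UMI occurred in 30.1% of members and 4.75% of oligodendrocyte nuclei. Grik2, a kainate receptor subunit, had ratios of 1.70 to 1.83.

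Of 30 release genes, 12 were above the cortical level in all 4 libraries and 9 below it in all 4. Unc13c encodes Munc13-3, a vesicle priming protein of granule neurons, and stood at 1244, 1097, 1138 and 1069 CPM against 252, 190.5, 287 and 247 CPM in cortical nuclei. In the immature nuclei it stood at 201 CPM (39 UMIs). Cadps2, which primes dense-core vesicles, had a log2 ratio of 2.25 to 2.58 to cortical nuclei. Cbln1, the secreted organiser that links parallel fibres to δ2 receptors on Purkinje cells, stood at 44.2, 67.1, 56.3 and 40.3 CPM, with ratios of 2.17 to 3.26. Its list of 19 synapse organisers had 8 genes above the cortical level in all 4 libraries and 8 below it in all 4. Slc17a7, which encodes VGLUT1, stood at 121, 151, 102 and 104 CPM against 135, 145, 112 and 111 CPM in cortical nuclei. A Slc17a7 UMI was found in 28.8% of members, 10.4% of oligodendrocyte nuclei and 11.0% of microglia.

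Of 29 potassium channel genes, 13 were above the cortical level in all 4 libraries and 12 below it in all 4. Kcnk3, the leak channel TASK-1, had log2 ratios to cortical nuclei of 2.03 to 3.10, and Kcnc1, the fast potassium channel Kv3.1, ratios of 1.64 to 1.96. Kcnd2, the A-type channel Kv4.2, stood at 7945, 7999, 6620.2 and 7361 CPM in members, 2109 CPM in immature nuclei and 2585 CPM in cortical nuclei. Its partner Dpp6 had ratios of 0.91 to 1.62. The hedgehog receptor Ptch1 and co-receptor Boc had ratios of 0.80 to 1.67 and 1.34 to 1.96. In their list of 14 hedgehog response genes, 4 were above the cortical level in all 4 libraries and 2 below it in all 4. Of 26 migration and axon growth genes, 11 were above the cortical level in all 4 libraries and 13 below it in all 4. Unc5b, a netrin receptor, had ratios of 2.91 to 3.87, and Astn2, which acts in migration along glia, ratios of 1.71 to 1.82. Robo2, a receptor for Slit guidance cues, showed the other order, at 419.9, 458, 682 and 557 CPM in members, 1861 CPM in immature nuclei and 842 CPM in cortical nuclei. Dcx, a microtubule protein of migrating neurons, stood at 41.6, 41.2, 54.1 and 52.5 CPM in members and 201 CPM in immature nuclei (39 UMIs).

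**Figure D2:**
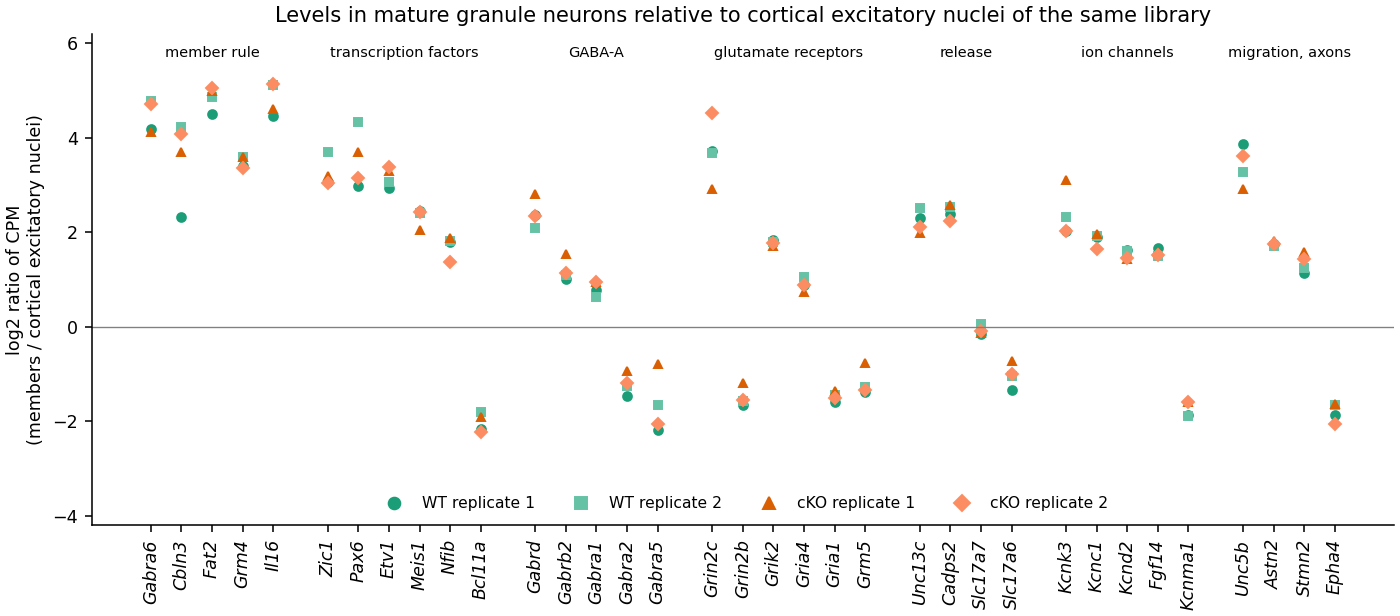
Log2 ratio of the level in mature granule neurons to that in cortical excitatory nuclei of the same library (vertical axis, 1 CPM added to both levels) for genes ordered by role along the horizontal axis. Each point is 1 library; Zic1, Etv1, Grin2c and Unc13c lie above 0 in all 4 libraries and Bcl11a and Grin2b below 0 in all 4.

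Outside the rule genes, those with the largest ratio in the library where the ratio was smallest were Gm27016, Gm42912, Svep1, Afap1l2, Chn2, Cnpy1, Adamts18, Uncx, Rgl3, Chd7, Zic1 and Eps8. Chn2, a Rac-regulating chimaerin, stood at 1443, 1315, 1670.5 and 1327 CPM in members and 115, 104, 161 and 97.6 CPM in cortical nuclei. Adamts18, a secreted metalloprotease, had ratios of 3.29 to 3.68, and Eps8, a regulator of actin, ratios of 3.00 to 3.57. Gm27016 varied most between the cKO libraries of these, at 246, 215, 145 and 295 CPM. Among those at the other end were Cnih3, Pdzrn3, Camk2a, Cpne6, 1700080N15Rik, Gm11418, Pde2a, Plekhg5, Ak5, Kalrn and Nrgn. Camk2a, a kinase of forebrain excitatory synapses, stood at 114, 123, 142 and 125 CPM in members and 634, 654, 586 and 668 CPM in cortical nuclei. Kalrn, an exchange factor of dendritic spines, had ratios of -2.42 to -1.91.

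The members were not uniform. Graph clustering of the 2703 members gave 8 groups, and the libraries contributed unequally to them. Group 2 was the largest with 1090 nuclei and held 29.7% and 51.5% of the members of the WT libraries and 10.0% and 50.9% of those of the cKO libraries. Group 4, with 329 nuclei, held 46.1% of the members of cKO replicate 1 and 4.30% to 5.25% of those of the other libraries. cKO replicate 1 therefore stood apart from the rest in its share of group 4, while cKO replicate 2 was close to WT replicate 2 in the share of group 2. Group 1 (477 nuclei) held 37.7%, 17.8%, 10.8% and 6.74%, so WT replicate 1 stood apart there. Group 3 (463 nuclei) held 17.1%, 13.9%, 22.9% and 19.7%.

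The genes that led each group describe it and were used to form it. Group 1 was led by mitochondrially encoded genes and Mbp, myelin basic protein. Mbp stood at 1036, 1641, 1020.4 and 1023 CPM inside group 1 in the 4 libraries. In the rest of groups 1 to 4 it stood at 203, 211, 89.3 and 134 CPM. Group 3 was led by Lgr5, a receptor for R-spondins that is known from young granule neurons, at 158, 186, 132 and 195 CPM inside the group and 38.3, 38.6, 37.5 and 29.7 CPM outside it. Group 4 was led by Kcnip1, which encodes a partner of Kv4 channels, at 752, 820.0, 285 and 268 CPM inside and 129, 70.3, 120.3 and 141 CPM outside. The group was formed with this gene and held 23 and 54 nuclei in WT and 226 and 26 in cKO, so its values do not compare the genotypes. Over all members a Kcnip1 UMI occurred in 15.3%, 15.3%, 20.2% and 19.1%, and it occurred in 14.4% of microglia. Crhr1, a receptor for corticotropin-releasing hormone, also led group 4, at 357, 354, 339.9 and 248 CPM inside. Group 2 was led by Gm28410, Gprc5c and Syt2 among others.

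Groups 5 to 8 held 344 members (12.7%) and were led by genes of other cells. Group 5 (164 nuclei, median depth 7355 UMIs) was led by Sorcs2, Rimbp2 and Camk2a. In it 88 nuclei also passed the cortical gate and 68 had high doublet scores. Group 6 (98 nuclei) was led by Ranbp3l, Slc7a11 and Slc6a20a, and 55 of its nuclei passed the astrocyte gate. Group 7 held 12 nuclei with Hcrtr2 and Lmx1a, and group 8 held 70 nuclei with Bcas1, Sox10 and Inpp5d. These groups stay in the members because the rule selects them, and values in groups 1 to 4 alone are given below for several genes.

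**Figure D3:**
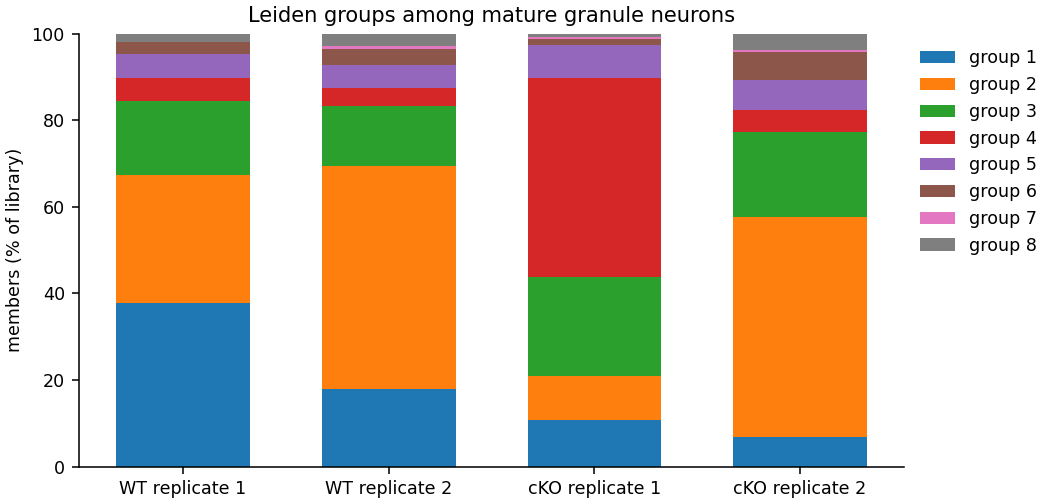
Share of each library's mature granule neurons (vertical axis, percent) that fell into each of the 8 groups of the members. Group 4 holds 46.1% of the members of cKO replicate 1 and at most 5.25% in the other libraries, while group 2 holds 51.5% of WT replicate 2 and 50.9% of cKO replicate 2.

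Ago2 was the targeted gene and was not lower in the libraries labelled cKO. It stood at 70.3 and 73.7 CPM in the members of the WT libraries and 97.5 and 80.5 CPM in those of the cKO libraries. Both cKO values exceeded both WT values, with a log2 change of 0.30 (SE 0.18, edgeR adjusted p 0.931). The change was 0.13 without cKO replicate 1 and 0.13 after thinning to 1000 UMIs per nucleus. In cortical excitatory nuclei it was 0.18 and in all other kept nuclei 0.17. An Ago2 UMI occurred in 18.9% of members, 21.2% of oligodendrocyte nuclei and 19.2% of microglia. The labels do not say which exons are deleted, and 3′ tags outside them check nothing, so these values do not check the genotype.

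The driver gene was sparse. Slc17a6 stood at 14.7 and 13.6 CPM in WT and 36.5 and 25.2 CPM in cKO members. Its groups did not overlap (log2 change 1.14, SE 0.30, adjusted p 0.55 by edgeR). A Slc17a6 UMI occurred in 4.29% of members (95% exact interval 3.56% to 5.13%), 3.74% of oligodendrocyte nuclei (2.46% to 5.43%) and 3.88% of microglia (2.28% to 6.14%). By library it occurred in 3.42%, 3.34%, 5.92% and 5.78% of members, 4.71%, 3.04%, 4.85% and 3.17% of oligodendrocyte nuclei and 6.25%, 4.32%, 1.20% and 3.33% of microglia. In both cKO libraries the members' share was the highest of the 3 classes, and its exact 95% interval overlapped those of the other two. The pooled share of members is not distinguished from those of oligodendrocyte nuclei and microglia at this depth. In all other kept nuclei the log2 change was 0.50. The transgene CRE was listed as a feature and had 0 of 64709928 UMIs in all barcodes. In the members, 0 UMIs allow a level of up to 0.376 CPM. Levels at this age do not show which members recombined Ago2 earlier.

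No gene passed the threshold between the genotypes. Summed UMIs of the members in each library were compared with edgeR's quasi-likelihood test, and 0 of 10138 genes (percent called 0) had a Benjamini-Hochberg adjusted p under 0.05. The smallest adjusted p was 0.451. At an unadjusted p under 0.05 there were 583 genes (5.75%). DESeq2 called 1 gene. Both cKO libraries lay above both WT libraries for 1751 genes (17.3%) and below them for 1747 (17.2%). The median log2 change over all genes was 0.0065. With 1 library left out the count was 11 or 20 genes (first or second WT library left out) and 50 or 161 genes (first or second cKO library left out), where the lone library of a genotype was assumed to vary like the pair of the other. Changes below are cKO relative to WT on the log2 scale, and none of them passed unless said.

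The genes with the smallest p and a positive change were Ankfn1, Rmst, Prkca, B230323A14Rik and Plxnc1. Prkca (chromosome 11, 107933387 to 108343928, GRCm38) encodes protein kinase Cα and stood at 240.3 and 223 CPM in WT and 389.8 and 369 CPM in cKO. The groups did not overlap, and the change was 0.72 (SE 0.13, edgeR adjusted p 0.451). It ranged from 0.65 to 0.77 with 1 library left out, was 0.64 within group 2 and 0.59 within group 3, and was 0.094 in all other kept nuclei. Ankfn1 stood at 16.5 and 16.2 CPM in WT and 41.9 and 46 CPM in cKO, a change of 1.43 (SE 0.24). In all other nuclei it was 0.25, and in groups 1 to 4 alone 0.95.

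Rmst is a long non-coding RNA known from midbrain and neural progenitors. It stood at 77.2 and 77.5 CPM in WT and 306 and 155 CPM in cKO, and the cKO libraries differed from each other by more than the WT libraries did. Its change was 1.58 (SE 0.27), and it was the 1 gene called by DESeq2 (adjusted p 0.00121). The value moved with the make-up of the members. Without nuclei that passed another gate it was 0.78, in groups 1 to 4 0.80 and in group 2 alone 0.14. Plxnc1, a semaphorin receptor, stood at 25.2 and 25.4 CPM in WT and 64.7 and 53.2 CPM in cKO, a change of 1.22, which was 0.31 in group 3 alone. B230323A14Rik stood at 2.6 and 1.21 CPM in WT and 12.9 and 12.9 CPM in cKO (change 3.01, SE 0.54).

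The genes with the smallest p and a negative change were Aqp4, Gm12027, Cox4i1, Rplp2 and Kcnip4. Kcnip4, which encodes a partner of Kv4 potassium channels, stood at 8095 and 10357 CPM in WT and 5332 and 6500.3 CPM in cKO. The groups did not overlap, and the change was -0.64 (SE 0.13, edgeR adjusted p 0.49). Within group 2 it was -0.67 and within group 3 -0.53, and in all other kept nuclei -0.38. Cox4i1, a subunit of cytochrome c oxidase, stood at 83.3 and 77.3 CPM in WT and 35 and 43.1 CPM in cKO (change -1.02), with -0.72 in other nuclei. Aqp4 encodes the astrocyte water channel and stood at 30.4 and 24.2 CPM in WT and 5.33 and 7.19 CPM in cKO (change -2.07, other nuclei -0.99). It is a marker of another cell type, and the summed astrocyte markers of the members did not separate the genotypes. The part of astrocyte RNA in this value was not tested.

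**Figure D4:**
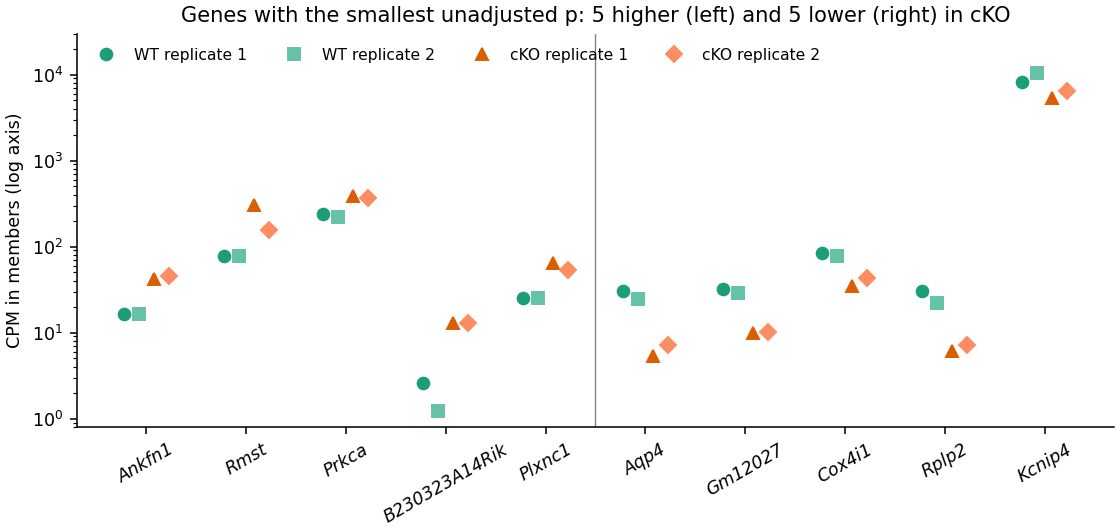
Level in CPM (vertical axis, log scale) in the members of each library for the 5 genes of positive and the 5 of negative change with the smallest unadjusted p; points are single libraries. For Prkca both cKO libraries (389.8 and 369 CPM) lie above both WT libraries (240.3 and 223 CPM), and for Kcnip4 both lie below.

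The lists of granule neuron genes showed small changes in both directions, and no member of any list passed. With 1 library left out the median changed sign for the transcription factor, NMDA, metabotropic, release, potassium channel, sodium and calcium channel and Argonaute lists. Transcription factors were 13 positive and 6 negative of 19 tested, with a median of 0.033. Neurod2, a factor of maturing neurons, stood at 40.8 and 44.6 CPM in WT and 32.7 and 23 CPM in cKO (change -0.63, SE 0.25), with -0.39 without cKO replicate 2. Meis2 stood at 138 and 175 CPM in WT and 225 and 188 CPM in cKO (change 0.38), with 0.16 in groups 1 to 4 and a negative sign within group 2 and within group 3. Zic1 had a change of -0.0077 and Etv1 of 0.033.

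Of the 15 genes of GABA-A receptors and their scaffold, 12 were positive and 3 negative, with a median of 0.20. Both cKO libraries were above both WT libraries for 7 of them (17.3% of all tested genes) and below for 0 (17.2%). Gabra5 stood at 12.1 and 16.7 CPM in WT and 44.2 and 20.9 CPM in cKO (change 1.09), the cKO replicate 1 level being the highest. Its change was 0.42 without cKO replicate 1, 0.16 in groups 1 to 4 and 0.34 in nuclei with at least 4 mature genes. Gabrb2 had a change of 0.17 and Gabrd of -0.12. The median of the list was 0.098 in groups 1 to 4, 0.10 without WT replicate 1, 0.051 in group 2 alone and -0.046 in all other nuclei.

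The glutamate receptor lists had positive medians over all members. NMDA subunits had 4 positive and 2 negative changes of 6 (median 0.060), with -0.026 for Grin2c, -0.073 for Grin2a and 0.12 for Grin2b, which had 0.38 in groups 1 to 4 and 0.036 without cKO replicate 1. AMPA and kainate receptors with their auxiliary subunits had 13 positive and 6 negative changes of 19 (median 0.065, -0.024 in group 2 alone and 0.041 in all other nuclei). Both cKO libraries were above both WT libraries for 7 of them (17.3% of all tested genes) and below for 1 (17.2%). Shisa6, an AMPA receptor auxiliary protein, stood at 46 and 54.3 CPM in WT and 74.6 and 91.3 CPM in cKO. The change was 0.70 (SE 0.19) over all members and 0.017 in group 2 alone. Grik1 had a change of 0.34 and Grik2 of 0.049. Metabotropic receptors and Homer scaffolds, with the rule gene Grm4 among them, had 7 positive and 1 negative change of 8 (median 0.17). The groups overlapped for all 8, while 17.3% of all tested genes had both cKO libraries above both WT libraries and 17.2% below. The median of this list was -0.035 without cKO replicate 1 and -0.054 in all other nuclei.

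Synapse organisers of the cerebellin, neurexin and δ receptor system had 10 positive and 7 negative changes of 17 (median 0.036). Grid1, the δ1 receptor, stood at 177 and 205 CPM in WT and 257 and 266 CPM in cKO, with no overlap (change 0.45, SE 0.14, 0.13 in group 2 alone). Tenm2, a teneurin, had a change of 0.39 over all members, 0.18 in groups 1 to 4 and -0.22 in group 2 alone. Cbln1 had a change of -0.26. Release genes had 13 positive and 17 negative changes of 30 (median -0.023, all other nuclei -0.079). For 3 of them both cKO libraries were above both WT libraries (17.3% of all tested genes) and for 9 below (17.2%). Syt2, a calcium sensor of fast release, stood at 110.2 and 207 CPM in WT and 64.7 and 106 CPM in cKO, with no overlap and with WT replicate 2 far above the rest (change -0.93). Without WT replicate 2 it was -0.35. Slc17a7 stood at 121 and 151 CPM in WT and 102 and 104 CPM in cKO (change -0.42, other nuclei -0.56, -0.22 without WT replicate 2), and Unc13c had a change of -0.078.

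Potassium channels and their partners had 17 positive and 12 negative changes of 29 (median 0.11). Their median was -0.0066 without cKO replicate 1, 0.0057 in groups 1 to 4, -0.057 in group 2 alone and -0.058 in all other nuclei. Kcnn2, the calcium-activated channel SK2, stood at 193 and 215 CPM in WT and 315 and 296 CPM in cKO. The groups did not overlap (change 0.58, SE 0.13), and other nuclei had 0.25. Kcnd2 had a change of -0.18. Sodium and calcium channels had 9 positive and 13 negative changes of 22 (median -0.021). Cacna2d2, an auxiliary calcium channel subunit, had a change of 0.56 over all members, 0.26 in groups 1 to 4 and -0.15 in group 3 alone.

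Genes of migration and axon growth had 15 positive and 8 negative changes of 23 (median 0.15). Both cKO libraries were above both WT libraries for 12 of them (17.3% of all tested genes) and below for 4 (17.2%). Their median was 0.076 without cKO replicate 1, 0.037 in group 2 alone and -0.017 in all other nuclei. Robo2 stood at 419.9 and 458 CPM in WT and 682 and 557 CPM in cKO (change 0.50, SE 0.14, other nuclei -0.031, 0.32 without cKO replicate 1). Cdh4, a classical cadherin, had a change of 0.65 over all members and -0.050 in group 2 alone. Dcx had a change of 0.37. The hedgehog list had 6 positive and 2 negative changes of 8 (median 0.18, 0.012 without cKO replicate 2 and 0.040 in group 2 alone). Gli3, a transcription factor of this pathway, stood at 13 and 20.4 CPM in WT and 35 and 30.2 CPM in cKO (change 0.87) and had a change of 0.085 without the nuclei that passed another gate. Boc had a change of 0.25.

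Chromatin and neurotrophin genes had 15 positive and 5 negative changes of 20 (median 0.077, all other nuclei 0.015). For 8 of them both cKO libraries were above both WT libraries (17.3% of all tested genes) and for 2 below (17.2%). Ntrk3, the receptor for neurotrophin 3, stood at 1094 and 943 CPM in WT and 1268 and 1215 CPM in cKO (change 0.29). Bdnf stood at 9.54 and 10.7 CPM in WT and 17.5 and 15.8 CPM in cKO. The Argonaute and miRNA pathway list had 9 positive and 8 negative changes of 17 (median 0.021). Ago1, Ago3 and Ago4 had changes of 0.28, -0.013 and -0.26, and Xpo5, which exports precursor miRNAs, one of 0.61. The genotypes overlapped for Ago1, Ago3 and Ago4.

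Ribosomal, mitochondrially encoded and myelin transcripts had negative changes, with negative medians in members and in all other kept nuclei. All 20 ribosomal and translation genes had negative changes (median -0.80), 12 with an unadjusted p under 0.05 (5.75% of all tested genes) and none past the threshold. Both cKO libraries were below both WT libraries for 19 of them (17.2% of all tested genes). Rplp1, a protein of the ribosomal stalk, stood at 49.4 and 41.4 CPM in WT and 12.2 and 21.6 CPM in cKO. The median of the list in all other kept nuclei was -0.83.

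All 12 tested mitochondrially encoded genes had negative changes (median -0.86, other nuclei -0.70). Their summed level was 5964, 2821, 2329 and 2415 CPM, so WT replicate 1 stood far above the other libraries. Without it the median was -0.19. The median mitochondrial share per member was 0.418%, 0.138%, 0.126% and 0.0984%, and the 5% maximum had removed 17.8%, 8.78%, 5.64% and 6.13% of the barcodes of the libraries. The 8 tested myelin genes were all negative (median -0.67, other nuclei -0.36). Their median was -0.34 without cKO replicate 1 and -1.29 without cKO replicate 2. Mbp stood at 622 and 476 CPM in WT and 176 and 347 CPM in cKO (change -1.06, other nuclei -1.13), and in groups 1 to 4 alone it passed the threshold (-1.40, edgeR adjusted p 0.00269). The Mbp change was -0.34 in group 2 alone, -0.67 without cKO replicate 1 and -1.62 without cKO replicate 2. An Mbp UMI occurred in 32.6% of members, 98.7% of oligodendrocyte nuclei and 31.7% of microglia. Group 1, where Mbp and mitochondrial genes led, was a larger share of both WT libraries than of both cKO libraries. The part of free RNA, mitochondrial content and group make-up in these values was not tested.

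**Figure D5:**
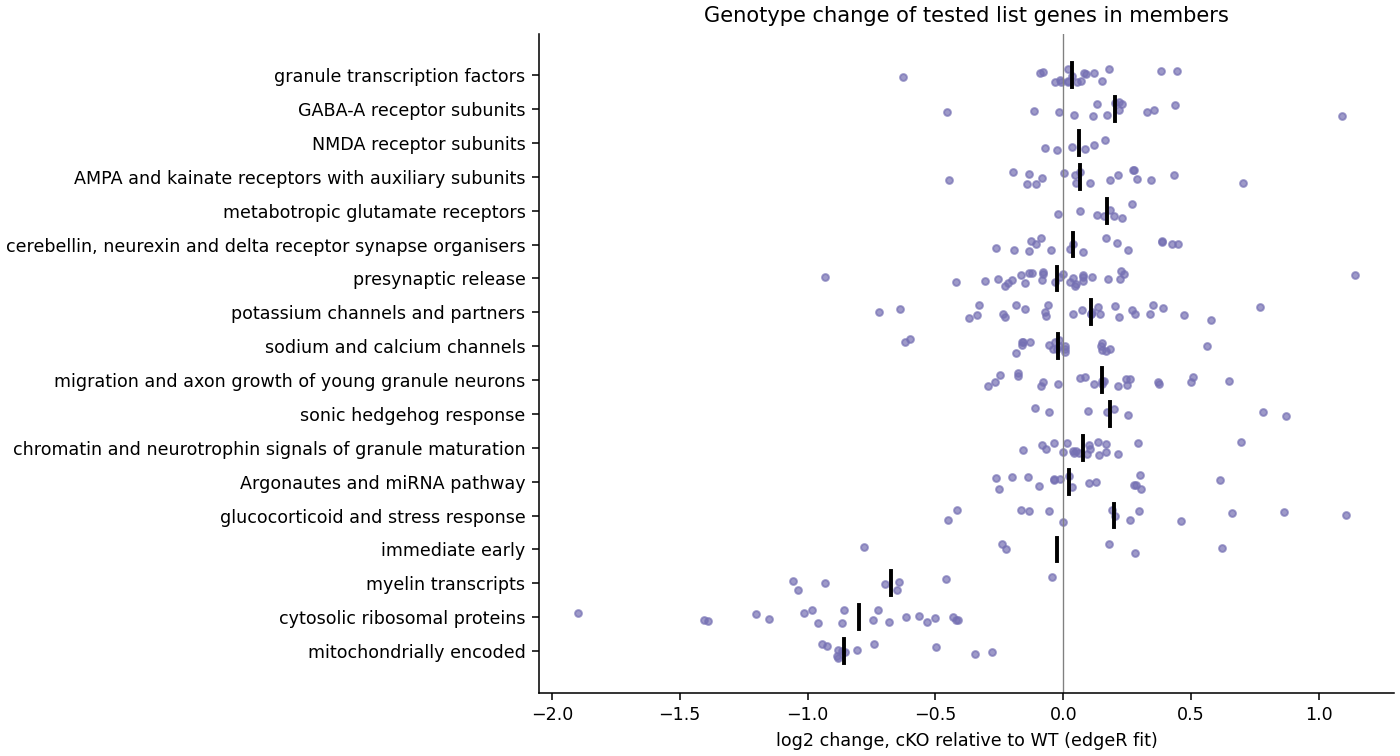
Log2 change, cKO relative to WT, of the tested genes of each list in mature granule neurons (horizontal axis); points are genes and the vertical bars show list medians. Ribosomal, mitochondrially encoded and myelin lists lie left of 0, with medians of -0.80, -0.86 and -0.67, and the medians of the other lists lie nearer to 0.

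The genotype change in members was also set against that in cortical excitatory nuclei, in a model with a term for each library and an interaction of class and genotype. Of 12053 genes, 0 passed (percent called 0) and DESeq2 called 0. The unadjusted p was under 0.05 for 625 genes (5.19%). Leaving out cKO replicate 1 gave 39 genes, leaving out cKO replicate 2 gave 160, and leaving out either WT library gave 0. The smallest adjusted p by edgeR was 0.0742, for Scube1, a secreted and membrane-bound protein. Scube1 stood at 13 and 11.6 CPM in WT and 26.6 and 25.2 CPM in cKO members, and its change differed from that in cortical nuclei by 1.68 (SE 0.29). Its own change was 1.10 in members and -0.58 in cortical nuclei. St18, a zinc finger factor, differed by 1.05 (adjusted p 0.0819 by edgeR), and its change in members was 0.034 against -1.01 in cortical nuclei. Prkca differed by 0.82 and B230323A14Rik by 3.07. In the other direction, Col1a2 differed by -2.86, Flt1 by -1.72 and Pip5k1b by -0.79. Col1a2 is a collagen of fibroblasts and Flt1 an endothelial receptor, and endothelial markers summed to 187, 91.8, 77.7 and 100 CPM in the members.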

How the data were processed

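Nuclei were profiled in 4 libraries with 3′ v3 chemistry of 10x Genomics. The deposited matrices hold integer UMI counts per gene and barcode, which the authors made with Cell Ranger 4.0.0 against GRCm38, per the submitters' processing notes and the file headers. Seurat 3.2.3 is also named there, without a role. Annotation release and intron setting: not given in the sources used here. The features and barcodes tables hold names only, and 0 columns of other samples were used.

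Members and gene lists were chosen with earlier results of these data known. Kept barcodes had 500 or more UMIs and a mitochondrial share below 5%, and the rule of the opening was applied to them. Counts were summed per library and compared with edgeR 4.0.16 in R 4.3.3 (filterByExpr, TMM scaling, quasi-likelihood, two-sided, Benjamini-Hochberg adjustment over all genes tested, threshold 0.05). CPM are these counts scaled by the class sum. Scanpy 1.11.5 and igraph 0.11.9 gave the 8 groups. Doublets were kept in the main values and marked by the highest Scrublet scores, at 0.8% per 1000 barcodes. Shares and ratios were compared by exact permutation over libraries. Alternatives were DESeq2 1.42.0, other scaling, filters, gates, thinning, left-out libraries, a replicate block, and, chosen after seeing the data, single groups. The edgeR fits were tested on simulated data.

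Named genes were the rule genes, up to 12 past the threshold in each direction of the genotype comparison or otherwise the 5 with the smallest p, the genes of highest level and smallest p of each list, Ago2, Slc17a6, Slc17a7 and markers, and the 12 largest ratios to cortical nuclei. Genes described by role in levels and group leaders outside this rule were chosen after their values were seen. Sex-linked genes were listed and are not reported, and a few other named genes are not reported here.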

Additional observations from a re-analysis of the deposited data

How the results depend on the processing

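Counts of called genes depended on single libraries and on the filter. In mature granule neurons the edgeR count was 0, and it was 11 to 161 with 1 library left out, 87 of 21674 genes with no filter on low counts and 1 (Mbp) in groups 1 to 4. DESeq2 called 1 gene. The edgeR count was also 0 with RLE size factors, at least 4 mature genes, doublets removed, groups 2 or 3 alone, a 10% mitochondrial maximum, mitochondrial and ribosomal genes left out, other gates removed and thinning. For the difference from cortical nuclei the count was 0 to 160 with 1 library left out, 16 with no filter, 2 with at least 4 mature genes, 1 with doublets removed and 1 after thinning. The cause was not tested.

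With the replicate number as a block 0 genes passed and 477 had an unadjusted p under 0.05. Same-numbered libraries had a correlation of deviations of -0.0266 over 10138 genes. With 2 libraries per genotype the crossed numbers mirror this at 0.0266, so the value cannot decide whether the numbers pair libraries. The labels do not say that they do, and the main fit used no block.

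The difference in share was -1.39 points, -5.04 to 2.26 with 1 library left out and 0.718 after thinning. The difference in mature to immature ratio was 51.8, 9.23 to 94.4 with 1 library left out, -27.6 after thinning and 1.43 with at least 2 immature genes. That looser gate gave 51, 100, 56 and 34 immature nuclei. Bnc2, Trpm3 and Htr2c, known from meninges or choroid plexus, were prominent under it, so its nuclei may include other cell types.

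For the 55 named genes and differences, 831 values were computed. Of these 738 kept direction and did not pass, 81 kept direction and passed (52 with 1 library left out), and 12 had the opposite sign. Meis2 was -0.065 in group 2 and -0.12 in group 3, Grin2b -0.077 in group 3, Tenm2 -0.22 in group 2, Cacna2d2 -0.15 in group 3, Cdh4 -0.050 in group 2 and Grin1 -0.038 in group 2. With 1 library left out Grin1 ranged from -0.093 to 0.37, Homer2 from -0.015 to 0.49 and Grm4 from -0.038 to 0.52.

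The comparison with immature nuclei could not be run as designed, since the gate gave 13, 34, 11 and 4 nuclei against a minimum of 20 per library. Low counts limit values near the detection limit, such as those of Neurod1, B230323A14Rik and, in the cKO libraries, Aqp4.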

Other observations

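Glucocorticoid-responsive and stress genes had 9 positive and 5 negative changes of 14 tested (median 0.20, all other kept nuclei 0.12), and none passed by edgeR. Fkbp5, which glucocorticoids induce and which binds their receptor complex, stood at 10.4 and 25.4 CPM in the WT members and 41.9 and 45.3 CPM in the cKO members. The groups did not overlap, and the log2 change was 1.11 (SE 0.33, edgeR adjusted p 0.625). It was 1.09 in all other kept nuclei and 0.78 to 2.07 with 1 library left out, WT replicate 1 having the lowest level. Zbtb16, another gene that glucocorticoids induce, stood at 31.2 and 39.3 CPM in WT and 50.3 and 64 CPM in cKO (log2 change 0.66, 0.088 in nuclei with at least 4 mature genes), while Nr3c1, the receptor itself, had a change of -0.45. The median of the list was -0.070 without cKO replicate 2.

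Immediate early genes, which neurons induce within minutes of activity, were near the detection limit in the members, and 6 of 16 could be tested. Of these 3 were positive and 3 negative (median -0.024, -0.30 without WT replicate 1 and 1.14 without WT replicate 2). Nr4a1 stood at 19.1 and 26.2 CPM in WT and 38.8 and 33.8 CPM in cKO with no overlap (log2 change 0.62), and Jund at 12.1 and 17 CPM in WT and 6.85 and 10.8 CPM in cKO, also with no overlap (log2 change -0.78, all other nuclei -0.75). None passed the edgeR threshold. When each library was prepared is not given, so time and genotype cannot be told apart.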
